A study of Mus musculus with 20 samples.

Results

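The 10 genes Fos, Fosb, Fosl2, Jun, Junb, Jund, Atf3, Batf, Batf2 and Batf3 were taken by name from the 78409 genes of the deposited table and were described over all 20 libraries. They encode members of the AP-1, ATF and BATF group of transcription factors. Bone marrow-derived macrophages (BMDMs) were grown from the femurs and tibias of female wild-type C57BL/6J mice in medium with 20% conditioned medium of L929 fibroblasts, seeded at 200000 cells per well and used on day 7 of culture, and no group carried a deletion in the macrophages themselves. The 5 groups of 4 libraries received PBS, the extracellular vesicle-enriched fraction (EVFx) or the protein-enriched fraction (ProteinFx) of bronchoalveolar lavage fluid (BALF), where each fraction came from either RNY1+/+ or RNY1-/- mice with ovalbumin-induced airway inflammation. RNY1 is a small noncoding Y RNA, and RNY1-/- mice carry a CRISPR deletion of both alleles of its locus. The paper lists the RNY1-/- mice as a GemPharmatech strain and every other mouse as wild-type C57BL/6J of another supplier. Whether the RNY1+/+ donors were littermates is not stated, so donor genotype and source of the mice cannot be told apart. Both EVFx were given at 35000000 particles per µL and both ProteinFx at 0.75 µg protein per µL after storage for 5 days, so the genotype is that of the donor of the fluid, and a comparison of EVFx with ProteinFx is not one of matched doses. Fractions of the size exclusion column were pooled before use, and whether the 4 replicates stand for separate cultures, mice or pools is not stated in the labels. The p-values below therefore measure the spread between these libraries, which may be technical. How long the macrophages were exposed before harvest is not given in the sources used here. A rise or fall below thus describes the level at harvest only.

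AP-1 is a dimer of basic leucine zipper (bZIP) proteins in which a JUN protein pairs with another JUN, a FOS or an ATF protein. Fos, Fosb, Jun and Junb are classical immediate early genes, whose transcription follows MAP kinase signalling and often fades soon after a stimulus, whereas JUND is usually present in resting cells and ATF3 is induced by stress and by Toll-like receptor signals. BATF, BATF2 and BATF3 lack a transactivation domain of their own, pair with JUN proteins and can bind composite elements with IRF4 or IRF8. In macrophages, AP-1 takes part in the transcription of cytokine genes and of genes for matrix proteases.

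Each library gave between 2510005 and 8277366 counts, with a median of 5456425, and 3 counts corresponded to 0.362 to 1.20 counts per 1000000 (CPM), below which a gene was taken as not measurable. All 12 macrophage markers listed were detected in every group, and their summed level was highest with PBS, with medians of 14498 CPM against 9829 to 11887 CPM with a fraction, and means of 8416 CPM against 4578 to 5333 CPM for Lyz2, the most abundant of them. A list of 12 neutrophil markers summed to 353 to 374 CPM with PBS, 176 to 232 with RNY1+/+ EVFx, 212 to 289.5 with RNY1-/- EVFx, 254 to 376 with RNY1+/+ ProteinFx and 287 to 430.2 with RNY1-/- ProteinFx, with S100a8 the most abundant, while Ly6g was at 0 in 4 of the 5 groups. A list of 7 eosinophil markers, nearly all Ccr3 and with Epx at 0 in every library, summed to 7.65 to 13.6 CPM with PBS, 0.801 to 2.46 CPM over both EVFx and 12.7 to 21.4 CPM over both ProteinFx. The share of counts from ribosomal protein genes was 4.66% to 6.08% with PBS and 2.31% to 3.96% with any fraction, and that of mitochondrial genes was 5.58% to 7.32% with PBS and 3.80% to 6.14% with any fraction. The part of these differences in the results below was not tested, and in bulk RNA fewer cells of a kind and less RNA per cell cannot be told apart. PBS replicate 3 stood apart for several of the 10 genes, with the highest Fos and the lowest Junb, Jund, Batf, Batf2 and Batf3 of its group.

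To show the sequence context of genes that are described below as moving with or against one another, the 250 bases upstream of the RefSeq gene start are printed 5′ to 3′ on the strand of the gene. RefSeq promoters of build GRCm38.p6 were matched for 9 of the 10 genes, all but Batf2. Both strands were searched for the AP-1 site TGANTCA, the CRE-type site TGACNTCA and the CRE core TGACGT, which is part of a full CRE and may overlap the second. Of 32851 promoters of the same length, 6.75%, 7.49% and 6.47% held a match. Fos, Jun, Atf3 and Batf had 1 match each, shown in capitals, and the other 5 had none in this window. The 4 windows are chr12:85473640-85473889 (plus strand), chr4:95052223-95052472 (minus strand), chr1:191183334-191183583 (minus strand) and chr12:85686470-85686719 (plus strand).
Fos: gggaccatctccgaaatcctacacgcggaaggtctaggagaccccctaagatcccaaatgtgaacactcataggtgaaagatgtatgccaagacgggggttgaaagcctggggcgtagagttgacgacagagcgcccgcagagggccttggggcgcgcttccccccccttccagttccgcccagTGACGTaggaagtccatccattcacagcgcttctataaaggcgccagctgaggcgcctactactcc
Jun: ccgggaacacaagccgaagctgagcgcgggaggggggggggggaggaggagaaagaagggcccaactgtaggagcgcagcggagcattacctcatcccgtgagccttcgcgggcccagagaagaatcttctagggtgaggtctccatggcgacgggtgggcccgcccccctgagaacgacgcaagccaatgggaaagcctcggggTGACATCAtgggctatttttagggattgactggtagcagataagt
Atf3: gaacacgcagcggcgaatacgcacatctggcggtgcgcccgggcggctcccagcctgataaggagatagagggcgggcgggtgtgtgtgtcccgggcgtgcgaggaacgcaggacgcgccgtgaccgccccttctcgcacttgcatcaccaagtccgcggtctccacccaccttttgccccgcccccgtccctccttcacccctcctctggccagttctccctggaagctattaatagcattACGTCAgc
Batf: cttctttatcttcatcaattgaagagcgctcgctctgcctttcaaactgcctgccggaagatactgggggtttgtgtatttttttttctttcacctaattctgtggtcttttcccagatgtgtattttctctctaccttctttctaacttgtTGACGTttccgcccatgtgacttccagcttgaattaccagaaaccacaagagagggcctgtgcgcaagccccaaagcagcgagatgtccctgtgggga
The capitals mark a CRE core 66 to 61 bases before the start of Fos, a CRE-type site 45 to 38 bases before that of Jun, a CRE core on the opposite strand 8 to 3 bases before that of Atf3, and a CRE core 98 to 93 bases before that of Batf. A match describes the letters only and was not tested as a binding site.

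Batf rose with every fraction, and its level separated the groups more widely than that of any other of the 10 genes. It measured 4.71, 6.49, 2.97 and 4.09 CPM in the 4 PBS libraries. With RNY1+/+ EVFx it measured 58.8, 66.1, 43.6 and 54.1 CPM, and with RNY1-/- EVFx 38.0, 47.4, 36.5 and 36.5 CPM. With RNY1+/+ ProteinFx it measured 23.5, 26.9, 23.9 and 31.8 CPM, and with RNY1-/- ProteinFx 13.6, 13.4, 12.7 and 11.4 CPM. Every library with a fraction lay above every PBS library, and in the order PBS, RNY1-/- ProteinFx, RNY1+/+ ProteinFx, RNY1-/- EVFx, RNY1+/+ EVFx, neighbouring groups overlapped only for the pair of EVFx groups. Against PBS, the fold changes were 13.5 with RNY1+/+ EVFx (log2 fold change 3.75, standard error [SE] 0.21, adjusted p = 1.5e-07), 9.98 with RNY1-/- EVFx (3.32, SE 0.20, adjusted p = 2e-07), 6.40 with RNY1+/+ ProteinFx (2.68, SE 0.22, adjusted p = 1.6e-06) and 2.88 with RNY1-/- ProteinFx (1.53, SE 0.22, adjusted p = 0.00063). All adjusted p are from the quasi-likelihood test of edgeR, adjusted over every gene tested by the method of Benjamini and Hochberg. In these 4 comparisons, 96.7% to 99.1% of the genes tested had a lower log2 fold change than Batf. Genes past both an adjusted p of 0.05 and a log2 fold change of 1 in either direction are called differentially expressed genes (DEGs), and Batf was a DEG in all 4 comparisons, also whenever any 1 library was left out.

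**Figure D1:**
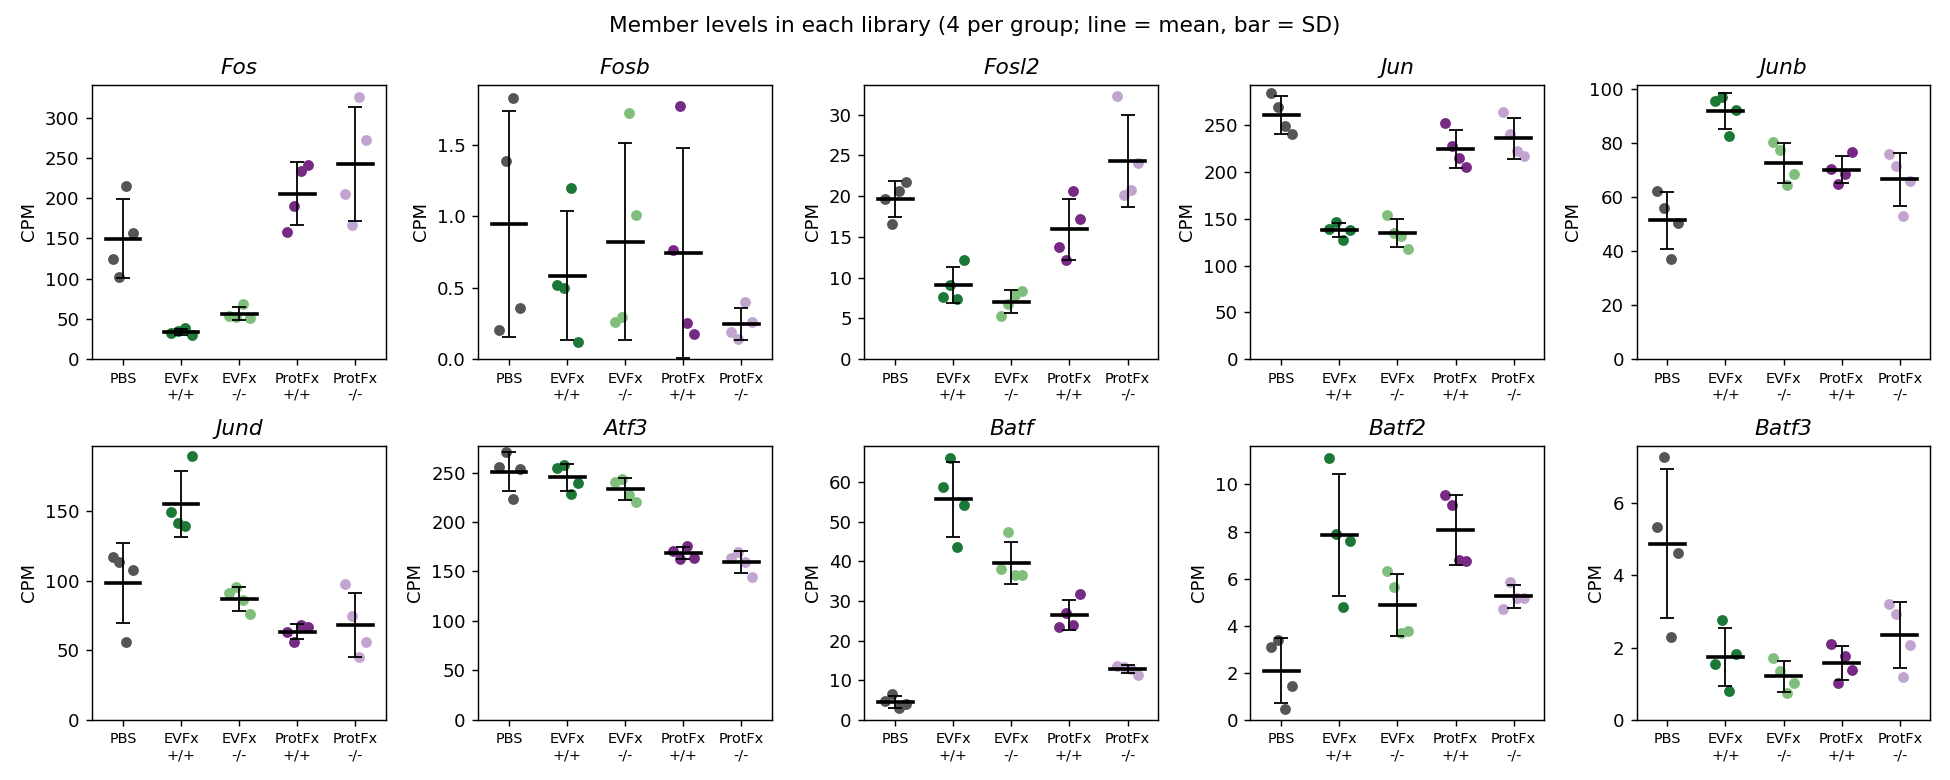
CPM of each of the 10 genes (vertical axes, each starting at 0 with its own scale) in the 5 groups of 4 libraries, with the mean as a line and the SD as a bar; EVFx and ProtFx are the vesicle- and protein-enriched fractions, +/+ and -/- the RNY1 genotype of the fluid donor. Fos lay at 30.2 to 68.2 CPM in the EVFx libraries and at 102 to 326 CPM in all others, while Batf lay at 2.97 to 6.49 CPM with PBS and at 11.4 to 66.1 CPM with a fraction.

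Batf2, known as an interferon-inducible member of the family, was also higher with each fraction, at lower counts. It measured 3.07, 3.40, 0.457 and 1.42 CPM with PBS, where 1 library was at or under 3 counts. It ranged from 4.81 to 11.1 CPM with RNY1+/+ EVFx, 3.69 to 6.30 CPM with RNY1-/- EVFx, 6.77 to 9.57 CPM with RNY1+/+ ProteinFx and 4.72 to 5.87 CPM with RNY1-/- ProteinFx. No library with a fraction fell within the PBS range. The log2 fold changes were 2.05 (SE 0.40, adjusted p = 0.0017), 1.43 (SE 0.40, adjusted p = 0.010), 2.05 (SE 0.38, adjusted p = 0.00088) and 1.34 (SE 0.40, adjusted p = 0.027), in the same order of fractions. The last of these lost its call in 4 of 8 fits with 1 library left out (without PBS replicate 4, or without RNY1-/- ProteinFx replicate 2, 3 or 4), with an adjusted p of up to 0.077. Batf3, which is required for the development of cross-presenting dendritic cells, went the other way. It measured 5.33, 7.26, 2.29 and 4.63 CPM with PBS and no more than 3.21 CPM in any library with a fraction, with group means of 1.73 ± 0.81, 1.20 ± 0.42, 1.57 ± 0.47 and 2.35 ± 0.91 CPM (SD, n = 4). Its PBS range did not overlap that of RNY1-/- EVFx or RNY1+/+ ProteinFx, and it overlapped the other two. The log2 fold changes of Batf3 were -1.28 with RNY1+/+ EVFx (SE 0.37, adjusted p = 0.017), -1.73 with RNY1-/- EVFx (SE 0.37, adjusted p = 0.0023), -1.47 with RNY1+/+ ProteinFx (SE 0.37, adjusted p = 0.0061) and -0.92 with RNY1-/- ProteinFx (SE 0.36, adjusted p = 0.071). Batf2 and Batf3 passed the limit of 3 CPM in these comparisons through the group in which they were high. Both have a high GC content, and after removal of the trends of log count with transcript length and GC content in each library, Batf3 measured -1.01, -0.94, -0.63 and -0.18, of which the latter pair did not pass the test (adjusted p = 0.071 and 0.60), while Batf2 kept its rise with every fraction.

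Fos fell with EVFx and was higher with ProteinFx. It measured 125, 102, 216 and 157 CPM with PBS, 32.1, 34.3, 38.0 and 30.2 CPM with RNY1+/+ EVFx, and 53.5, 52.6, 68.2 and 51.3 CPM with RNY1-/- EVFx. It measured 158, 190.1, 234 and 241 CPM with RNY1+/+ ProteinFx and 205, 167, 326 and 273 CPM with RNY1-/- ProteinFx. The 2 EVFx groups lay below all others and did not overlap each other, whereas PBS and both ProteinFx groups overlapped. Fos was 3.95-fold lower with RNY1+/+ EVFx than with PBS (log2 fold change -1.98, SE 0.21, adjusted p = 2.2e-05) and 2.26-fold lower with RNY1-/- EVFx (-1.17, SE 0.21, adjusted p = 0.00063), the latter reaching -0.94 without PBS replicate 3. Its log2 fold changes with ProteinFx were 0.63 (SE 0.22, adjusted p = 0.029) for RNY1+/+ and 0.78 (SE 0.27, adjusted p = 0.045) for RNY1-/-. These passed the test in only 4 and 3 of 8 fits with 1 library left out. Without PBS replicate 1 or PBS replicate 2, neither passed. The first also failed without RNY1+/+ ProteinFx replicate 3 or 4, and the second without PBS replicate 4 or RNY1-/- ProteinFx replicate 3 or 4, where adjusted p reached 0.086 and 0.13.

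Fosl2, which encodes the FOS-related protein FRA2, was likewise lower with EVFx. It measured 19.7, 16.5, 20.6 and 21.7 CPM with PBS, 7.63, 9.13, 7.41 and 12.2 CPM with RNY1+/+ EVFx and 5.25, 6.70, 7.88 and 8.41 CPM with RNY1-/- EVFx. It measured 13.8, 12.2, 20.6 and 17.2 CPM with RNY1+/+ ProteinFx and 32.3, 20.1, 20.7 and 24.1 CPM with RNY1-/- ProteinFx. The EVFx groups overlapped each other and lay below the PBS libraries, while both ProteinFx groups overlapped the PBS range. Fosl2 fell by 0.92 with RNY1+/+ EVFx (SE 0.18, adjusted p = 0.0017) and by 1.24 with RNY1-/- EVFx (SE 0.18, adjusted p = 0.00019) on the log2 scale. With ProteinFx its log2 fold changes were -0.13 (SE 0.18, 95% interval -0.57 to 0.31, adjusted p = 0.56) and 0.38 (SE 0.18, -0.05 to 0.81, adjusted p = 0.11), and removal of the trends, as given for Batf3, moved the latter to 0.59 (adjusted p = 0.019). Fosb had 1 to 9 counts per library and 0.121 to 1.83 CPM, with overlapping ranges in all groups, and was tested in no comparison.

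Among the JUN genes, Jun fell with EVFx, in contrast to Junb. Jun measured 285, 269, 249 and 240.3 CPM with PBS, 139, 146, 128 and 138 CPM with RNY1+/+ EVFx and 154, 135, 132 and 118 CPM with RNY1-/- EVFx. It measured 252, 228, 215 and 205 CPM with RNY1+/+ ProteinFx and 265, 241, 222 and 217 CPM with RNY1-/- ProteinFx. Both EVFx groups overlapped each other and lay below the remaining libraries, which overlapped among themselves. The log2 fold changes of Jun against PBS were -0.74 with RNY1+/+ EVFx (SE 0.09, adjusted p = 7.5e-05) and -0.72 with RNY1-/- EVFx (SE 0.11, adjusted p = 0.00019), or 1.67-fold and 1.64-fold lower. With ProteinFx they were -0.04 (SE 0.10, 95% interval -0.30 to 0.21) and -0.08 (SE 0.11, -0.34 to 0.18), and after removal of the length and GC trends 0.28 (adjusted p = 0.044) and 0.24 (adjusted p = 0.13). The same removal moved Jun to -0.81 (adjusted p = 4.2e-05) with RNY1+/+ EVFx and to -0.41 (adjusted p = 0.0061) with RNY1-/- EVFx. 

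Junb, whose product can restrain that of Jun at some targets, was higher with each fraction. It measured 62.1, 55.9, 37.1 and 50.4 CPM with PBS and 95.5, 97.2, 82.5 and 92.2 CPM with RNY1+/+ EVFx. It ranged from 64.3 to 80.4 CPM with RNY1-/- EVFx, from 64.9 to 76.7 CPM with RNY1+/+ ProteinFx and from 53.0 to 75.8 CPM with RNY1-/- ProteinFx. Only the range with RNY1-/- ProteinFx overlapped that of PBS. Its log2 fold changes were 1.01 (SE 0.15, adjusted p = 0.00020), 0.74 (SE 0.15, adjusted p = 0.0018), 0.62 (SE 0.15, adjusted p = 0.0054) and 0.44 (SE 0.17, adjusted p = 0.065) in the same order of fractions. The first lay at the limit of 1, and fell to between 0.89 and 1.00 without PBS replicate 3 or RNY1+/+ EVFx replicate 1 or 2. Junb has a transcript GC content of 62.6%, higher than that of 99.4% of the expressed genes, and after removal of the trends its rises measured 1.24, 1.53, 1.42 and 1.20, each a DEG.

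Jund, with a GC content of 67.1%, higher than that of 99.9% of the expressed genes, gave values that turned on the same correction. The trend removed at this GC content rests on few genes, an uncertainty that the adjusted p does not include. It measured 117, 113, 55.8 and 108 CPM with PBS, 149, 142, 139 and 189.7 CPM with RNY1+/+ EVFx and 91.1, 95.7, 85.8 and 75.7 CPM with RNY1-/- EVFx. It ranged from 55.6 to 67.9 CPM with RNY1+/+ ProteinFx and from 45.4 to 97.6 CPM with RNY1-/- ProteinFx. The 4 RNY1+/+ EVFx libraries lay above all others, and the PBS range overlapped those of the remaining groups. Against PBS it was higher with RNY1+/+ EVFx (log2 fold change 0.83, SE 0.21, adjusted p = 0.0078), did not pass the test with RNY1-/- EVFx (0.06, SE 0.20, adjusted p = 0.82), and measured -0.47 (SE 0.20, adjusted p = 0.066) and -0.46 (SE 0.26, adjusted p = 0.18) with RNY1+/+ and RNY1-/- ProteinFx, whereas after removal of the trends these 4 values became 1.29, 1.12, 0.57 and 0.52 and all passed the test. Without PBS replicate 3, the lowest PBS library, the ProteinFx values were -0.67 (adjusted p = 2.3e-05) and -0.66 (adjusted p = 0.015). The direction for Jund with ProteinFx thus depended on the treatment of GC content, and the read counts of Jund held fractions from shared reads in 11 of 20 libraries.

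Atf3 did not pass the test with EVFx and fell with ProteinFx. It measured 255, 271, 223 and 254 CPM with PBS, 254, 258, 228 and 239.8 CPM with RNY1+/+ EVFx and 241, 244, 228 and 220.2 CPM with RNY1-/- EVFx. It measured 171, 163, 176 and 164 CPM with RNY1+/+ ProteinFx and 164, 169.8, 159 and 144 CPM with RNY1-/- ProteinFx. All 8 ProteinFx libraries lay below the other 12. The log2 fold changes with EVFx were 0.14 (SE 0.09, 95% interval -0.09 to 0.37, adjusted p = 0.25) and 0.13 (SE 0.09, -0.10 to 0.37, adjusted p = 0.25), the latter 0.34 (adjusted p = 0.0016) after removal of the trends. With ProteinFx Atf3 fell by 0.41 (SE 0.10, adjusted p = 0.0048) and by 0.59 (SE 0.11, adjusted p = 0.0022), and the first of these measured -0.19 (adjusted p = 0.051) after removal of the trends.

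**Figure D2:**
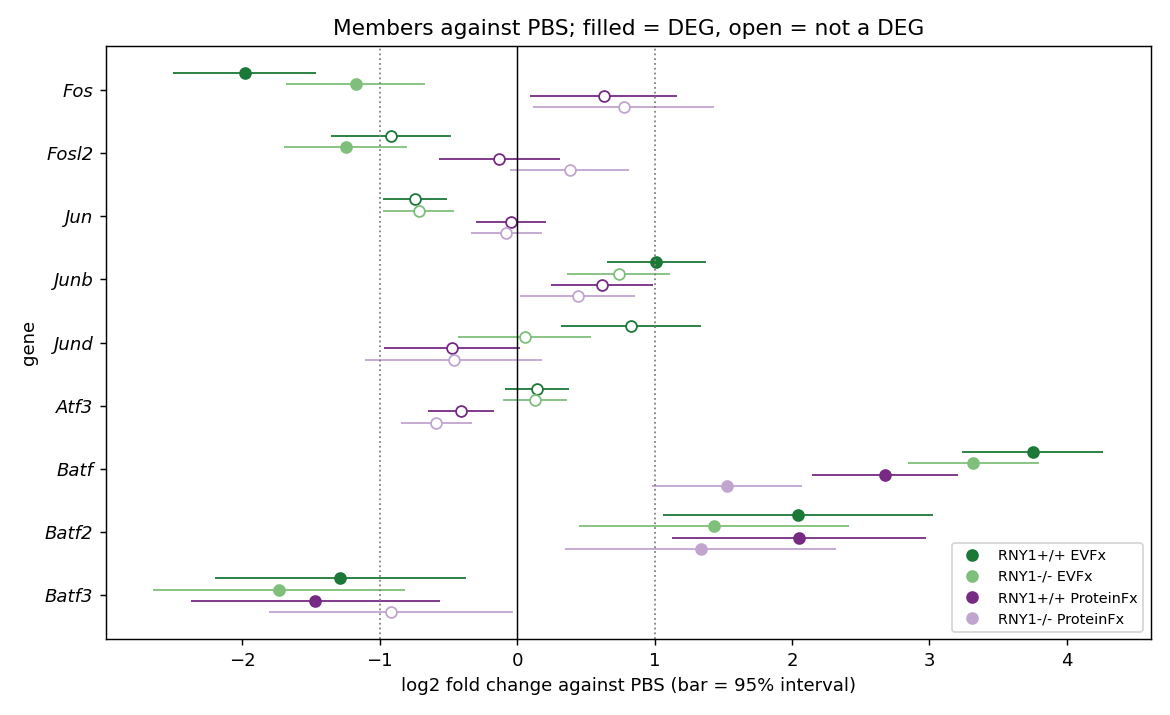
Log2 fold change against PBS (horizontal axis) of the 9 genes tested, with 95% intervals, for the 4 fractions by colour; filled points are DEGs and dotted lines mark the fold change limit. Batf and Batf2 lay above 1 with all 4 fractions, while Fos lay at -1.98 and -1.17 with EVFx and at 0.63 and 0.78 with ProteinFx.

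With RNY1+/+ EVFx, 5 of the 9 genes tested were DEGs, where 16.4% of all genes tested were. Batf, Batf2 and Junb were the 3 higher (all genes, 8.24%) and Fos and Batf3 the 2 lower (8.18%). With RNY1-/- EVFx it was 5 of 9 against 22.5% of all genes, with Batf and Batf2 higher (9.02%) and Fos, Fosl2 and Batf3 lower (13.5%). With RNY1+/+ ProteinFx it was 3 of 9 against 21.3%, with Batf and Batf2 higher (8.96%) and Batf3 lower (12.3%). With RNY1-/- ProteinFx it was 2 of 9 against 14.3%, Batf and Batf2 again higher (6.32%) and none lower (7.96%). By an adjusted p of 0.05 alone, 8, 7, 6 and 4 of the 9 passed in this order, against 44.5%, 58.3%, 55.2% and 35.7% of all genes, and the libraries of the groups did not overlap for 7, 7, 5 and 3 of the 9, against 43.5%, 52.3%, 46.8% and 30.9%. Batf2 and Batf3 passed the limit of 3 CPM through the group in which they were high, so their calls add no support to these counts, and among the other 7 genes 3, 3, 1 and 1 were DEGs. Batf3 was tested in 7, 5, 6 and 8 of the 8 fits with 1 library left out. The median absolute log2 fold changes of the 9 genes were 1.01, 1.17, 0.62 and 0.59, and those of all genes 0.39, 0.52, 0.51 and 0.42. The medians of the 9 include Batf2 and Batf3. Among the other 7 genes, the middle value by size was -0.92 (Fosl2), 0.74 (Junb), -0.47 (Jund) and -0.46 (Jund) in this order. With RNY1+/+ ProteinFx that is smaller in size than the median of all genes. The 4 comparisons share the PBS libraries, so their values are given side by side and not as independent support for one another.

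The fractions were next set against each other within a genotype, at the doses named above. With RNY1+/+ fluid, 3 of 8 genes tested were DEGs between ProteinFx and EVFx (1 higher, 2 lower), where 13.4% of all genes were (6.64% higher, 6.78% lower). An adjusted p of 0.05 alone was passed by 7 of 8, as by 63.2% of all genes, and the libraries did not overlap for 6 of 8, as for 55% of all genes. Fos was 6.15-fold higher with ProteinFx (log2 fold change 2.62, SE 0.14, adjusted p = 8.9e-10), and 99.4% of the genes tested had a lower value. Fosl2 and Jun were also higher, by 0.79 (SE 0.19, adjusted p = 0.0021) and 0.70 (SE 0.08, adjusted p = 4.5e-06). After removal of the trends Fosl2 measured 0.95 (adjusted p = 0.00025) and Jun 1.11 (adjusted p = 6.4e-08), which made Jun a DEG. Batf and Jund were lower, at -1.07 (SE 0.13, adjusted p = 8.1e-06) and -1.29 (SE 0.11, adjusted p = 1.6e-07), and these 2 measured -0.60 and -0.65 after removal of the trends. Without RNY1+/+ EVFx replicate 2 Batf measured -0.99. Atf3 fell by 0.54 (SE 0.08, adjusted p = 2.2e-05), and Junb by 0.39 (SE 0.09, adjusted p = 0.0014), which turned to 0.22 (adjusted p = 0.061) after removal of the trends. Batf2 was at 0.01 (SE 0.22, 95% interval -0.53 to 0.54).

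With RNY1-/- fluid, 3 of 8 genes tested were DEGs between ProteinFx and EVFx (2 higher, 1 lower), against 9.02% of all genes (4.97% higher, 4.06% lower), and 6 of 8 passed an adjusted p of 0.05 alone, against 29.2%. The libraries did not overlap for 5 of 8, against 33% of all genes. Fos was 3.87-fold higher with ProteinFx (log2 fold change 1.95, SE 0.21, adjusted p = 1.7e-05), Fosl2 3.12-fold higher (1.64, SE 0.20, adjusted p = 5.7e-05) and Batf 3.46-fold lower (-1.79, SE 0.13, adjusted p = 4.8e-07). Jun was higher by 0.65 (SE 0.10, adjusted p = 0.00036) and Atf3 fell by 0.71 (SE 0.09, adjusted p = 6.1e-05). The values of Jund (-0.50, SE 0.17, adjusted p = 0.048) and Junb (-0.28, SE 0.12, adjusted p = 0.085) were less firm, and that of Jund passed in only 1 of 8 fits with 1 library left out, the one without RNY1-/- ProteinFx replicate 1. In this comparison the correlation of log2 fold change with GC content across all genes was 0.066 (Spearman's rho, a description across genes), against -0.49 with RNY1+/+ fluid.

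To see whether the RNY1 genotype of the fluid donor changed the response to EVFx, macrophages given RNY1-/- EVFx were compared with those given RNY1+/+ EVFx. No gene of the 10 was a DEG, where 2.33% of all genes tested were (0.378% higher, 1.96% lower). By an adjusted p of 0.05 alone, 4 of the 8 tested passed (1 higher, 3 lower), where 52.1% of all genes did (25.5% higher, 26.6% lower), and 3 of 8 did not overlap between the groups, where 44.7% of all genes did not. Fos was 1.76-fold higher with RNY1-/- EVFx (log2 fold change 0.81, SE 0.10, adjusted p = 0.00020), with a value above that of 98.5% of the genes tested, and 1.02 (adjusted p = 0.00014) after removal of the trends. Jund (-0.76, SE 0.10, adjusted p = 0.00023), Batf (-0.43, SE 0.12, adjusted p = 0.0095) and Junb (-0.27, SE 0.08, adjusted p = 0.018) passed as lower in the counts as deposited, but after removal of the trends Jund measured -0.15 (adjusted p = 0.057), Batf -0.02 (adjusted p = 0.91) and Junb 0.30 (adjusted p = 0.023). Jun moved from 0.03 (SE 0.08, 95% interval -0.16 to 0.23) to 0.41 (adjusted p = 0.0020) and Atf3 from 0.00 (SE 0.07) to 0.22 (adjusted p = 0.020) under the same correction. Batf2 measured -0.60 (SE 0.24, adjusted p = 0.051), passed in 2 of 8 fits with 1 library left out (without RNY1+/+ EVFx replicate 3 or RNY1-/- EVFx replicate 1), and measured -0.16 (adjusted p = 0.62) after removal of the trends. The share of counts from mitochondrial genes was 3.80% to 4.99% with RNY1+/+ EVFx and 5.41% to 6.14% with RNY1-/- EVFx, without overlap, and its part in these values was not tested. Across the genes tested, the log2 fold change in this comparison went down with GC content at a Spearman's rho of -0.65. Among all genes, 241 of 10324 were DEGs in the counts as deposited and 91 of 10021 after removal of the trends. Without RNY1+/+ EVFx replicate 4 it was 99 of 10295. Of the 8 genes, Fos alone passed the test in the same direction with and without removal of the trends.

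Between macrophages given RNY1-/- and RNY1+/+ ProteinFx, Batf stood out. Its 4 values with RNY1-/- ProteinFx, 11.4 to 13.6 CPM, all lay below those with RNY1+/+ ProteinFx, 23.5 to 31.8 CPM. Batf was 2.21-fold lower (log2 fold change -1.14, SE 0.15, 95% interval -1.50 to -0.78, adjusted p = 0.00069) and was the 1 DEG among the 8 genes tested, where 1.82% of all genes were DEGs (0.658% higher, 1.16% lower) and 5.54% passed an adjusted p of 0.05 alone. Only 1.01% of the genes tested had a lower value. It stayed a DEG whenever 1 library was left out and measured -1.23 (adjusted p = 0.00050) after removal of the trends, and the correlation with GC content across genes was 0.16 here. Batf2 did not overlap between the groups either, at 4.72 to 5.87 CPM against 6.77 to 9.57 CPM, which makes 2 of 8 genes without overlap where 14.2% of all genes had none, and its log2 fold change was -0.70 (SE 0.20, adjusted p = 0.057), or -0.79 (adjusted p = 0.027) after removal of the trends. Fosl2 measured 0.53 (SE 0.19, adjusted p = 0.15). The other 5 genes ranged from -0.17 for Atf3 (95% interval -0.39 to 0.06) to 0.15 for Fos (-0.36 to 0.67). The share of counts from ribosomal protein genes was 2.31% to 2.98% with RNY1+/+ ProteinFx and 3.07% to 3.96% with RNY1-/- ProteinFx. These ranges did not overlap, and the part of this difference in the values of the comparison was not tested.

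**Figure D3:**
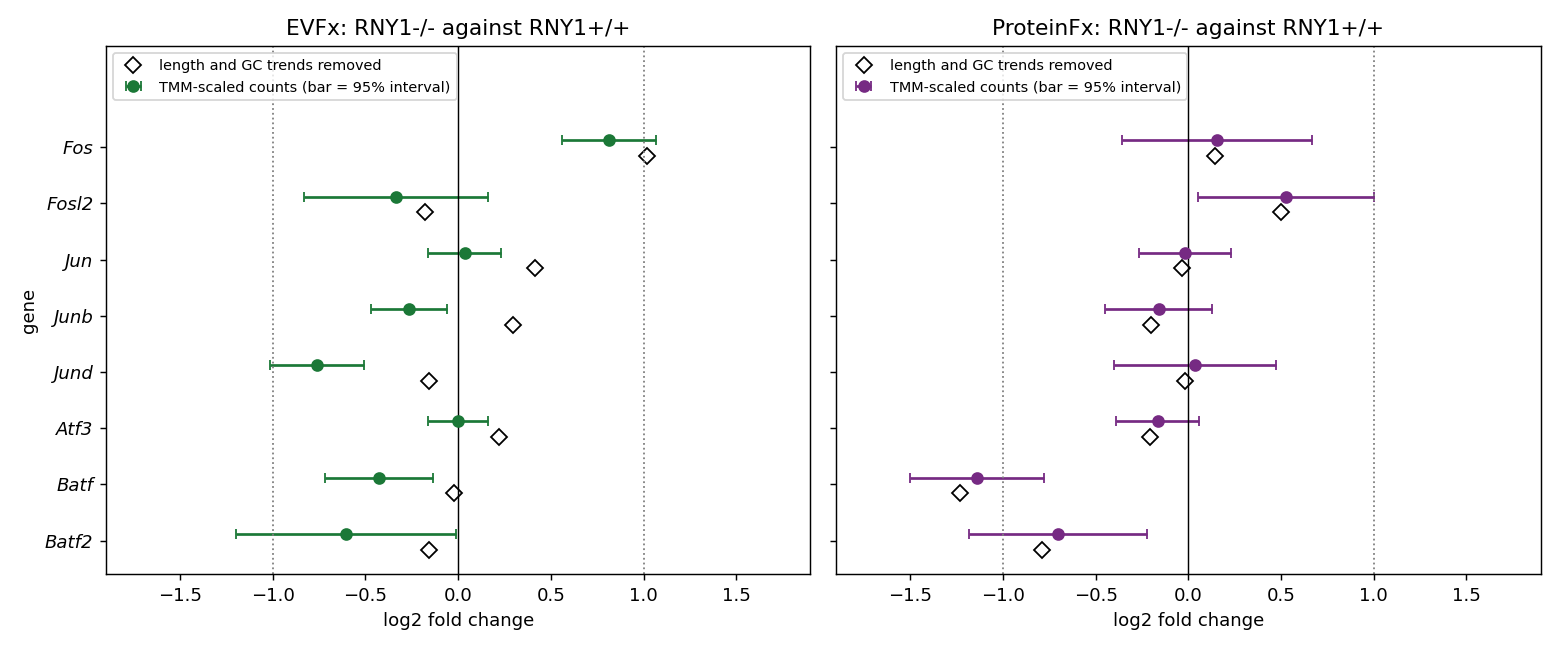
Log2 fold change of RNY1-/- against RNY1+/+ fluid (horizontal axes) for the 8 genes tested, in EVFx (left) and ProteinFx (right); filled points with 95% intervals are from counts scaled by the trimmed mean of M-values (TMM), and open diamonds are values after removal of length and GC trends. Batf in ProteinFx lay at -1.14 and -1.23, while in EVFx it lay at -0.43 and -0.02, and Junb in EVFx changed sign from -0.27 to 0.30.

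The difference between these genotype effects was tested as an interaction over the 16 libraries with a fraction. It passed for 3 of the 8 genes tested (2 higher in ProteinFx, 1 lower), and for 33% of all genes (16.9% higher, 16.1% lower). The genotype effect on Batf was lower in ProteinFx than in EVFx by 0.72 (SE 0.19, adjusted p = 0.012) on the log2 scale, and by 1.21 (adjusted p = 0.0017) after removal of the trends. The effect on Jund was higher in ProteinFx by 0.80 (SE 0.22, adjusted p = 0.012), and by 0.15 (adjusted p = 0.45) after removal of the trends. That on Fosl2 was higher by 0.86 (SE 0.30, adjusted p = 0.033), passed in 10 of 16 fits with 1 library left out and measured 0.67 (adjusted p = 0.087) after removal of the trends. For Fosl2 the call was lost without RNY1+/+ EVFx replicate 4, RNY1-/- EVFx replicate 1 or 2, RNY1+/+ ProteinFx replicate 1 or 2, or RNY1-/- ProteinFx replicate 1. The interaction for Fos was -0.66 (SE 0.27, adjusted p = 0.061), so that a difference in its genotype effect between fractions was not shown, and it measured -0.87 (adjusted p = 0.048) after removal of the trends. Under that correction Junb turned from 0.11 (SE 0.14) to -0.49 (adjusted p = 0.022), Jun moved from -0.05 (SE 0.12) to -0.45 (adjusted p = 0.025) and Atf3 from -0.16 (SE 0.10) to -0.42 (adjusted p = 0.010). Batf2 measured -0.10 (SE 0.33, adjusted p = 0.83) and did not pass with the trends removed either (-0.63, adjusted p = 0.17). Batf alone passed both with and without the correction.

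Other bZIP genes moved in the same libraries, in part more widely. Of 43 listed, 33 were tested with RNY1+/+ EVFx, and 9 rose and 3 fell as DEGs (all genes, 8.24% and 8.18%; median log2 fold change 0.11, all genes -0.03). With RNY1-/- EVFx 9 rose and 4 fell of 33 (all genes, 9.02% and 13.5%), with RNY1+/+ ProteinFx 7 rose and 3 fell of 32 (8.96% and 12.3%), and with RNY1-/- ProteinFx 6 rose and 2 fell of 32 (6.32% and 7.96%). Cebpb, which encodes a C/EBP factor of inflammatory macrophages, had a mean of 299 ± 27.2 CPM with PBS and 1254 ± 15.9 CPM with RNY1+/+ EVFx (SD, n = 4), with a log2 fold change of 2.24 (SE 0.10, adjusted p = 3.9e-08). Maff, a small MAF protein gene, rose from 1.64 to 3.20 CPM with PBS to 17.4 to 28.1 CPM with RNY1+/+ EVFx (3.56, SE 0.24, adjusted p = 6.9e-07), and with RNY1+/+ ProteinFx lay at 1.74 to 2.28 CPM. Creb5 rose by 2.49 with RNY1-/- EVFx, 2.50 with RNY1+/+ ProteinFx and 2.18 with RNY1-/- ProteinFx, and Cebpa measured -1.76, -2.91, -2.80 and -2.26 with the 4 fractions in the order above.

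Genes of the MAP kinase cascade upstream of AP-1 were DEGs in 1, 4, 5 and 4 of 21 tested with the 4 fractions in the same order, against 16.4%, 22.5%, 21.3% and 14.3% of all genes. Of these, 1 rose and none fell as DEGs with RNY1+/+ EVFx, 2 rose and 2 fell with RNY1-/- EVFx, 2 rose and 3 fell with RNY1+/+ ProteinFx, and 1 rose and 3 fell with RNY1-/- ProteinFx. Map3k8, which encodes the kinase TPL2 upstream of ERK, rose by 1.51 (SE 0.20), 1.59 (SE 0.21) and 1.55 (SE 0.31) in the last 3, and Mapkapk2, the p38-activated kinase, rose by 1.45 (SE 0.22) in the first. Of 6 MAP kinase phosphatases tested with EVFx, Dusp6 and Dusp7 fell as DEGs with both genotypes. Dusp6, an ERK phosphatase that is itself induced by ERK signalling, averaged 41.0 ± 7.0 CPM with PBS, 11.6 ± 2.4 CPM with RNY1+/+ EVFx and 12.9 ± 2.6 CPM with RNY1-/- EVFx (SD, n = 4). No phosphatase was a DEG with either ProteinFx. The shares of all genes given for the MAP kinase cascade also apply to the next counts. Among 15 to 17 other immediate early genes tested, 4 rose and 4 fell with RNY1+/+ EVFx, 4 rose and 3 fell with RNY1-/- EVFx, 5 rose and none fell with RNY1+/+ ProteinFx, and 3 rose and 1 fell with RNY1-/- ProteinFx. Ier3 rose with all 4, by 2.36, 1.77, 2.36 and 2.12. Egr2, a zinc finger factor, fell by 1.80 (SE 0.23) and 1.33 (SE 0.32) with the 2 EVFx.

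Of the BATF partners, Irf8 fell while Batf rose, and Irf4 had no more than 4 counts in any library and was not tested. Irf8 averaged 269 ± 63.2 CPM with PBS, 122 ± 20.0 CPM with RNY1+/+ EVFx, 87.8 ± 10.5 CPM with RNY1-/- EVFx, 112 ± 1.9 CPM with RNY1+/+ ProteinFx and 146 ± 50.7 CPM with RNY1-/- ProteinFx (SD, n = 4). Its log2 fold changes were -0.97, -1.38, -1.10 and -0.83, all past an adjusted p of 0.05 and the middle pair DEGs. Textbook AP-1 target genes did not move as one. Of 14 tested with RNY1+/+ EVFx, 6 rose and 3 fell as DEGs (median log2 fold change 0.39), where 16.4% of all genes were DEGs, and of 13 tested with RNY1+/+ ProteinFx 7 rose and none fell (median 1.10), where 21.3% of all genes were. With RNY1-/- EVFx 7 rose and 2 fell of 14 (all genes, 22.5%), and with RNY1-/- ProteinFx 5 rose and 1 fell of 13 (all genes, 14.3%). Mmp13, a collagenase gene with a well-known AP-1 site, lay at 9.02 to 15.8 CPM with PBS, 25.6 to 32.8 CPM with RNY1+/+ EVFx, 396 to 742 CPM with RNY1+/+ ProteinFx and 122 to 225 CPM with RNY1-/- ProteinFx. It fell by 1.81 (SE 0.23, adjusted p = 0.00056) from RNY1+/+ to RNY1-/- ProteinFx and was 1 of 5 DEGs among the 13 targets tested there, all 5 lower with RNY1-/- ProteinFx, where 1.16% of all genes were lower. Between the EVFx, 2 of 14 targets were DEGs, both lower with RNY1-/- EVFx, where 1.96% of all genes were lower. These were Tnf (-1.22, SE 0.13, adjusted p = 0.00020) and Il1b (-1.21, SE 0.17, adjusted p = 0.00028), both genes of inflammatory cytokines. Il1b fell further from RNY1+/+ to RNY1-/- ProteinFx (-2.74, SE 0.47, adjusted p = 0.0048) and was also among the DEGs there. Values of these target genes are given without removal of the length and GC trends. Ccnd1, the cyclin D1 gene, averaged 260.2 ± 31.7 CPM with PBS and 24.7 ± 5.7 CPM with RNY1+/+ EVFx (SD, n = 4; log2 fold change -3.21, SE 0.17, adjusted p = 1e-07). Il1b, which encodes interleukin 1 beta, reached no more than 4 counts with PBS, 41.4 to 57.1 CPM with RNY1+/+ EVFx and 18.4 to 87.1 CPM with RNY1+/+ ProteinFx.

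The genes most like each of 8 of the 10 in their pattern over the 5 groups were sought among 7553 genes with a mean of at least 10 CPM, by the root mean square (RMS) difference of centred group means in log2 CPM. For Batf they were Cd40 (RMS difference 0.14), a costimulatory receptor gene, Acsl1 (0.16), for an acyl-CoA synthetase, and Nfkbia (0.19), for the NF-kB inhibitor IkB-alpha. For Fos they were Lbh (0.21), Gpr65 (0.21), a proton-sensing receptor gene, and Man1a (0.25), for a mannosidase of the Golgi. For Jun they were Il10rb (0.040), a subunit of the interleukin 10 receptor, Clta (0.051), a clathrin light chain, and Vma21 (0.069). For Atf3 they were Cln8 (0.053), a gene without a symbol in the table (ENSMUSG00000140944, 0.062) and Ghdc (0.067). Junb was nearest to Pip4k2b (0.042), Prmt9 (0.055) and Cybc1 (0.058), Jund to Sh3tc1 (0.037) and Edem2 (0.052), Fosl2 to Osbpl11 (0.12), Hilpda (0.13) and Ski (0.13), and Batf2 to Gm10134 (0.062), Pgap2 (0.12) and Rab20 (0.13). This likeness over 5 points is a description without a test, and none of the 10 genes was among those nearest to another.

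**Figure D4:**
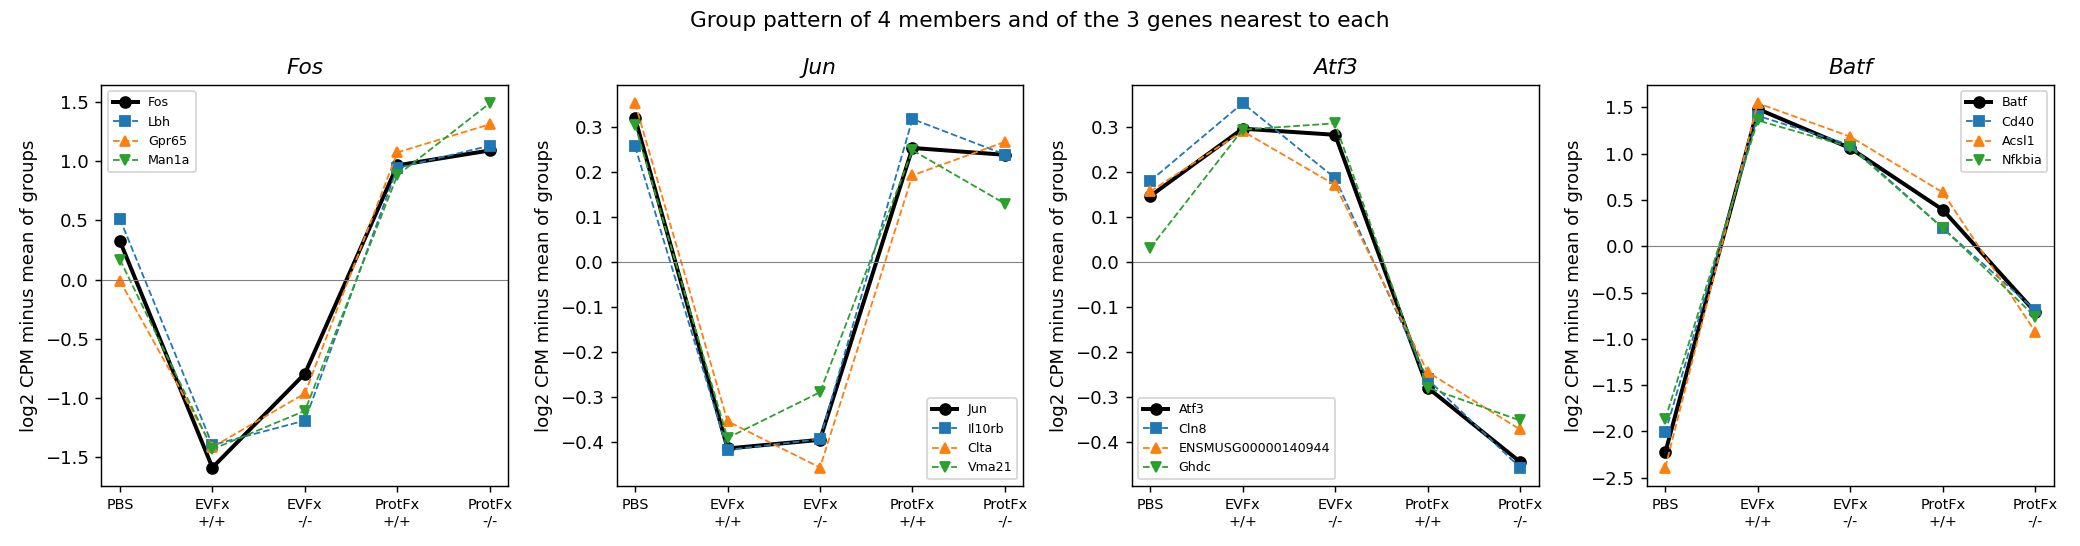
Group means of log2 CPM minus the mean over the 5 groups (vertical axes, own scale for each panel) for Fos, Jun, Atf3 and Batf (black) and the 3 genes nearest to each (dashed). Fos and Jun dipped in both EVFx groups, Atf3 was low in both ProteinFx groups, and Batf and Cd40 were lowest with PBS and highest with RNY1+/+ EVFx.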

How the data were processed

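Libraries were made from the 3′ ends of polyadenylated RNA with unique molecular identifiers, and all 20 samples carry the same batch label, which does not say what the batch was. According to the submitters' processing notes and the study's methods, reads were checked with FastQC 0.12.1, trimmed with fastp 0.24.0, aligned to GRCm39 with STAR 2.7.11, sorted with SAMtools 1.22.1, deduplicated by their identifiers with UMIcollapse and counted over exons and 3′ UTRs by strand with featureCounts of Subread 2.1.1. The annotation release was not given in the sources used here. Reads with several positions were shared as fractions, so the authors deposited an expected count per gene and library (78409 genes, 34373 with a count), beside CPM. The deposited CPM were used for levels, with the group mean and SD.

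Expected counts were rounded to whole numbers and tested with edgeR 4.0.16 in R 4.3.3 by the quasi-likelihood test with TMM scaling, in the 8 libraries of each pair of groups and, for the interaction, in 16. Genes had to pass filterByExpr and a mean of 3 CPM over the libraries of the fit, and p-values were adjusted over all of them by the method of Benjamini and Hochberg. Groups came from the sample titles. The alternatives were DESeq2 1.42.0, total counts in place of TMM, other filters, all 20 libraries in 1 fit, the replicate number as a block, leaving out each library, and removal of trends of log count with transcript length and GC content (natural splines with 4 degrees of freedom for each library, from GENCODE transcripts of GRCm38, which covered 96.7% to 97.1% of the genes tested). Length and GC content were those of the longest transcript of each gene, although the libraries came from 3′ ends. The count models were tested on simulated data.

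The 10 genes, the lists, the tests and the naming rule were chosen with earlier results of these data known. The rule named all 10, the 2 largest rises and falls among the DEGs of each list averaging 10 CPM or more, and the 3 genes nearest in pattern to each of the 8 averaging 3 CPM or more. Irf4, Il1b and values of list genes in comparisons where they were not among the largest were added after their values were seen. The rule also named Il1b, with both EVFx and RNY1+/+ ProteinFx against PBS and in the genotype comparison of each fraction. Some genes that the rule named are not reported here. Promoters were taken from RefSeq (GRCm38.p6). Counting error is limited by depth, and the floor of 3 counts covers counting error only.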

Additional observations from a re-analysis of the deposited data

Results flagged for a closer look

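Of 50 groups of 4 values (10 genes in 5 groups), 3 had a library far from the rest by Dixon's test at the 95% level, where chance gives about 1 in 20. They were the highest Fos value with RNY1-/- EVFx, 68.2 CPM in replicate 3, the lowest Jund value with PBS, 55.8 CPM in replicate 3, and the highest Batf value with RNY1-/- EVFx, 47.4 CPM in replicate 2. In 3 genes the effect of the donor's genotype differed between ProteinFx and EVFx by the interaction test of edgeR, by 0.86 for Fosl2, 0.80 for Jund and -0.72 for Batf on the log2 scale, and the values with the length and GC trends removed stand beside these in the report.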

How the results depend on the processing

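Of 1270 values of single genes under the alternatives, 1196 kept their status as a DEG or not, while 30 lost and 30 gained that call. In the interaction, the call was an adjusted p under 0.05 alone. The other 14 reversed in sign, with an adjusted p under 0.05 in at least 1 of the settings. The 1196 include 42 that changed sign with no adjusted p under 0.05 in either setting. They also include values that crossed an adjusted p of 0.05 without a change in the DEG call, as Fos did with ProteinFx. With the length and GC trends removed, the reversed log2 fold changes were 0.28 for Jun and 0.57 for Jund with RNY1+/+ ProteinFx against PBS, 0.52 for Jund with RNY1-/- ProteinFx against PBS, 0.30 for Junb and 0.22 for Atf3 between the EVFx, 0.22 for Junb between the RNY1+/+ fractions, and -0.49 for Junb in the interaction. The number of DEGs between the EVFx then rose from 0 to 1 and the number of genes called in the interaction from 3 to 5.

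With an adjusted p of 0.05 and no fold change limit, the counts were 8 for RNY1+/+ EVFx, 6 for RNY1+/+ ProteinFx and 4 for RNY1-/- ProteinFx against PBS, 4 between the EVFx, 7 between the RNY1+/+ fractions and 6 between the RNY1-/- fractions. With all 20 libraries in the fit, 3 genes were DEGs with RNY1+/+ EVFx against PBS. With 1 library left out, the counts ranged from 4 to 6 for RNY1+/+ EVFx, 4 to 5 for RNY1-/- EVFx, 2 to 3 for RNY1+/+ ProteinFx and 1 to 3 for RNY1-/- ProteinFx against PBS, stayed at 0 between the EVFx and at 1 between the ProteinFx, and ranged from 2 to 3 between the RNY1+/+ fractions and from 2 to 4 in the interaction. The count of 1 for RNY1-/- ProteinFx came without PBS replicate 4 or RNY1-/- ProteinFx replicate 2, 3 or 4, through Batf2. Groups did not overlap in 52 of 100 pairs of a gene and 2 groups, and in 51 with TMM-scaled CPM.

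Deviations of same-numbered libraries from their group means correlated at -0.39 to 0.64 over 40 pairs (median 0.11, 21 above 0.1), against a median of -0.05 over 120 pairs with different numbers (37 above 0.1), and 10 of 20 libraries correlated best with their own number. This is a hint of shared deviation, but not every pair lay above 0.1 and the labels name nothing that a number shares, so the numbers were not taken to pair the samples. With the replicate block the counts were 5, 5, 3 and 3 against PBS, 0 between the EVFx, 1 between the ProteinFx, 3 between the RNY1+/+ and 3 between the RNY1-/- fractions, and 4 in the interaction. With the block and the trends removed, the count was 1 between the EVFx and 6 in the interaction, and the reversed values were 0.57 for Jund with RNY1+/+ ProteinFx, 0.25 for Jun and 0.54 for Jund with RNY1-/- ProteinFx, 0.30 for Junb and 0.22 for Atf3 between the EVFx, 0.23 for Junb between the RNY1+/+ fractions and -0.49 for Junb in the interaction. Total counts in place of TMM moved the median log2 fold change of all genes against PBS from -0.03 to -0.21 with RNY1+/+ EVFx, -0.27 with RNY1-/- EVFx and -0.20 with RNY1+/+ ProteinFx, and Fos with RNY1+/+ and RNY1-/- ProteinFx then measured 0.46 and 0.69 (adjusted p of 0.089 and 0.056, edgeR). The causes were not tested. At 1 to 9 counts per library, Fosb could not be compared at this depth, and Batf3 rests on 3 to 47 counts per library.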

Other observations

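Fosl1, which encodes the FOS-related protein FRA1 and was not among the 10 genes, lay at 0.56 to 4.06 CPM over all 20 libraries. Maff, given above for RNY1+/+ fluid, lay at 9.32 to 20.7 CPM with RNY1-/- EVFx and at 1.56 to 3.40 CPM with RNY1-/- ProteinFx. Dusp6 averaged 32.1 ± 6.5 CPM with RNY1+/+ ProteinFx and 20.7 ± 3.1 CPM with RNY1-/- ProteinFx (SD, n = 4), and its genotype effect was lower in ProteinFx than in EVFx by 0.92 (SE 0.25, adjusted p = 0.013, edgeR). Mmp13 had the same sign in that test (-1.65, SE 0.30, adjusted p = 0.0027), and 5 of 14 AP-1 target genes tested were called, all lower, where 16.1% of all genes were called lower. Irf8 went the other way (0.70, SE 0.23, adjusted p = 0.028).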
